A study of Mus musculus with 59 samples.

Results

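CTCF sites that mouse embryonic stem cells (ESCs) held and reprogramming fibroblasts did not are described here. They were selected on measured values, namely the overlap of peaks from chromatin immunoprecipitation and sequencing (ChIP-seq). A CTCF peak of wild-type ESCs was taken when it overlapped, by 1 bp or more, no peak of the 13 CTCF lists of day 0, day 10 and sorted reprogramming cells. This rule took 16400 of 83173 peaks (19.7%), which are called ESC-only sites. The remaining 66773 are called other ESC sites. "ESC-only" refers to these lists and to no other cell type.

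CTCF is a zinc-finger protein that binds a long DNA motif, stops the cohesin ring as it extrudes chromatin loops and so sets the borders of loops and domains. SMARCA5, also called SNF2H, is an ATPase of the ISWI family that slides nucleosomes, and in ESCs it is known to keep nucleosomes spaced around CTCF sites and to aid CTCF binding. Sites that differ between cell types often lie near enhancers or promoters of genes of that cell type, whereas sites shared by many cell types tend to have a strong motif.

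The series held 59 samples, 28 of them input DNA, and 16 peak lists, 1 per group. The ESCs were of the E14Tg2a line at passages 20 to 24, grown with LIF and inhibitors of MEK (PD0325901) and GSK3. They were wild type or carried a Smarca5 knockout made with a Cas9 nickase and paired guides to the first or the second exon, and each of these 2 CTCF lists rests on 1 ChIP sample. SMARCA5 was mapped by streptavidin pulldown of a Flag-biotin tagged, overexpressed protein in E14 cells that carry the biotin ligase birA, grown from picked clones. The 13 lists used by the rule come from 27 ChIP samples of OG2 mouse embryonic fibroblasts and their progeny. At day 10 these cells carried retroviral OSKM (Oct4, Sox2, Klf4 and c-Myc) alone, with Ctcf, or with Ctcf and an shRNA against Smarca5. The others carried inducible lentiviral OSKM with rtTA and an shRNA against luciferase or Ctcf. Thy1 is a surface protein of fibroblasts, and SSEA1 marks cells on the way to pluripotency. These cells were collected at day 0, as Thy1+ cells (days 3 and 9), SSEA1- Thy1- cells (days 6 and 9), SSEA1+ cells (days 6 and 9) and Oct4-GFP+ cells (day 12).

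Peak lists hold no mRNA, so neither the loss of Smarca5 nor the identity of the cells could be checked. Differences between lists have no replicate check, depth per library is not given in the sources used here, and the intervals below are 95% intervals that cover counting error only. Every peak is 400 bp wide and has a score of 0 in the deposited files, so the strength of a site is not known. The wild-type ESC list is longer than each of the 13 lists, which held between 23600 and 53043 peaks. A site missing from them may be bound below their threshold, which was not tested, and binding in fewer cells cannot be told apart from weaker binding. In the 3 ESC lists, 100% of overlapping peaks at ESC-only sites had identical coordinates, so these lists had been placed on common positions before deposit, which can raise their overlap.

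The rule leaves no overlap between ESC-only sites and the 13 lists, so a gap is built in. The gap to the nearest peak of the 13 lists had a median of 8522 bp, with quartiles of 4199 and 19287 bp. It was under 1000 bp at 958 sites (5.84%). For scale, the median distance to the nearest ESC site was 7864.5 bp from ESC-only sites and 7330 bp from other ESC sites. Just outside the limit of the rule, 55 members had a gap of 0 to 100 bp, of which 92.7% were in the knockout list and 67.3% held SMARCA5. Just inside the limit, 134 other sites overlapped by 1 to 100 bp, with 90.3% in the knockout list and 56.7% with SMARCA5. Among all other ESC sites, 96.9% overlapped a peak of the 13 lists by more than 300 bp. The Oct4-GFP+ cells of day 12 have switched on a reporter of the Oct4 gene. Among single lists, leaving out their luciferase shRNA list would have added the most sites, 2323. Leaving out the day 10 OSKM list would have added the fewest, 2, but the other day 10 lists can hold the same sites. Without all 3 day 10 lists the rule took 19333 sites instead of 16400.

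A few promoter sequences show the DNA at or beside these sites. They come from RefSeq promoter windows (GRCm38.p6, 250 bases before to 50 after a start site), and 293 windows of 279 genes held the centre of an ESC-only site and of no other ESC site. Windows were searched on both strands for the CTCF core motif, a 12-letter consensus. The 4 stretches below belong to the genes of the gene lists described further on whose promoter window held such a site and whose best match lay before the start site. Capitals mark the best match to the core, read on either strand, and each stretch is printed on the strand of its gene. The match was sought in the whole window, so it can lie away from the centre of the site. At Neurog1 the match was at -177 bp from the start site and the site centre at 13 bp.
Smarca5, chr8:80739581-80739640, minus strand: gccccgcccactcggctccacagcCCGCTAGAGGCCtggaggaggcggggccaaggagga
Neurog1, chr13:56252328-56252387, minus strand: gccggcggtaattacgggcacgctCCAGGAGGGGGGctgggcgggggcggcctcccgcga
Pcdh15, chr10:73821774-73821833, plus strand: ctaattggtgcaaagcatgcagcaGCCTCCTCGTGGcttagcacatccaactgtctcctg
Tdrd1, chr19:56826207-56826266, plus strand: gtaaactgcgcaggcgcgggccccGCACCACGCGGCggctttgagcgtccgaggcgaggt
The best matches of Smarca5, Neurog1 and Pcdh15 differ from the core at 2 positions and that of Tdrd1 at 3. Matches this loose are common. At most 2 mismatches were found in 45.4% of the 293 windows and in 65.6% of windows with another ESC site. The share was 29.8% over all windows and 26.7% for windows with neither kind of site. The next 4 stretches differ from the core at 1 position. They were chosen after their values were seen, to show what a close match at an ESC-only site looks like.
Msgn1, chr12:11209043-11209102, minus strand: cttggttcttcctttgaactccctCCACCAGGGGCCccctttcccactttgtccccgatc
Rcan1, chr16:92400099-92400158, minus strand: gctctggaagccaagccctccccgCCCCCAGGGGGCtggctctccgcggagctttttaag
Vangl2, chr1:172027305-172027364, minus strand: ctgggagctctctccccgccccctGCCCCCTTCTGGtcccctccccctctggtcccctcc
Plin5, chr17:56117368-56117427, minus strand: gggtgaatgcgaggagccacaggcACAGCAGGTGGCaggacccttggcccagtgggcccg

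Close matches to the CTCF core were rare in promoters with an ESC-only site. With at most 1 mismatch, 16 of the 293 windows matched (5.46%, 3.39 to 8.69), against 612 of 2451 windows with another ESC site (24.97%, 23.3 to 26.7) and 4.33% of all 32851 windows. Windows with neither kind of site matched in 2.63% of cases. Among windows grouped by the number of lists that held the site, the share was 10.2% for 1 to 4 lists, 14.3% for 5 to 9, 29.2% for 10 to 12 and 50.1% for all 13. An exact match stood in 1 window with an ESC-only site, that of Gpr37l1, and in 145 windows with another ESC site. The GC content of windows with an ESC-only and with another ESC site was close, and that of windows with neither was lower. The mean was 62.5% ± 9.17 (SD over 293 windows) with an ESC-only site, 62.8% ± 9.30 (SD over 2451 windows) with another ESC site and 53.0% ± 11.1 (SD over 30107 windows) with neither. Among the list groups it ran from 65.4% for 1 to 4 lists to 59.4% for all 13. These shares describe promoter windows, which hold a small minority of the sites.

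At the promoter of Smarca5 itself lay an ESC-only site (chromosome 8, 80739386 to 80739785, mm10), whose centre was at -126 bp from a start site. It held a SMARCA5 peak and was present in the Smarca5 knockout list. The other ESC site near Smarca5, 28.6 kb into the gene, was held by 11 of the 13 lists. At Neurog1, a proneural transcription factor, and at Pcdh15, a protocadherin of hair cells, the promoter sites had no SMARCA5 peak and were kept in the knockout list. The Pcdh15 start site is an internal one, 726 kb into the span. Tdrd1, a germline gene of the piRNA pathway, and Cntnap2, a neuronal adhesion gene, had ESC-only promoter sites with SMARCA5, also kept. The Cntnap2 start site is internal as well. Its site lies at 47244191 to 47244590 of chromosome 6, in a plus-strand span from 45060061 to 47301393. Of the 4 stretches chosen for a close match, Msgn1, Rcan1 and Vangl2 were kept and Plin5, a lipid droplet gene, was absent from the knockout list. All 4 held SMARCA5.

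The first comparison asked whether ESC-only CTCF sites remain when ESCs lack Smarca5. The knockout list held 15623 of the 16400 sites (95.3%, 94.9 to 95.6), and 777 were absent. It counted 89567 peaks in total, more than the 83173 from which the sites were taken. Whether this length raised the share kept was not tested. The share was 97.6% (97.5 to 97.7) for other ESC sites and 97.1% over all ESC sites. The difference, ESC-only minus other ESC sites, was -2.31 percentage points (-2.67 to -1.98), negative on 20 of 20 chromosomes with at least 20 sites of each class.

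Retention did not simply follow recurrence. Sites held by exactly 1 of the 13 lists were kept in 92.1% of cases (91.4 to 92.8), which is 3.17 points (2.43 to 3.95) below the ESC-only sites, with that sign on 17 of 20 chromosomes. Sites in 2 lists were kept in 94.2% and sites in 3 lists in 95.7%. It was 98.7% for sites in 9 lists and 99.9% for sites in all 13. The sites held only by 1 day 12 list, either with luciferase shRNA (2323 sites) or with Ctcf shRNA (1261 sites), were kept in 91.7% and 92.1% of cases.

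**Figure D1:**
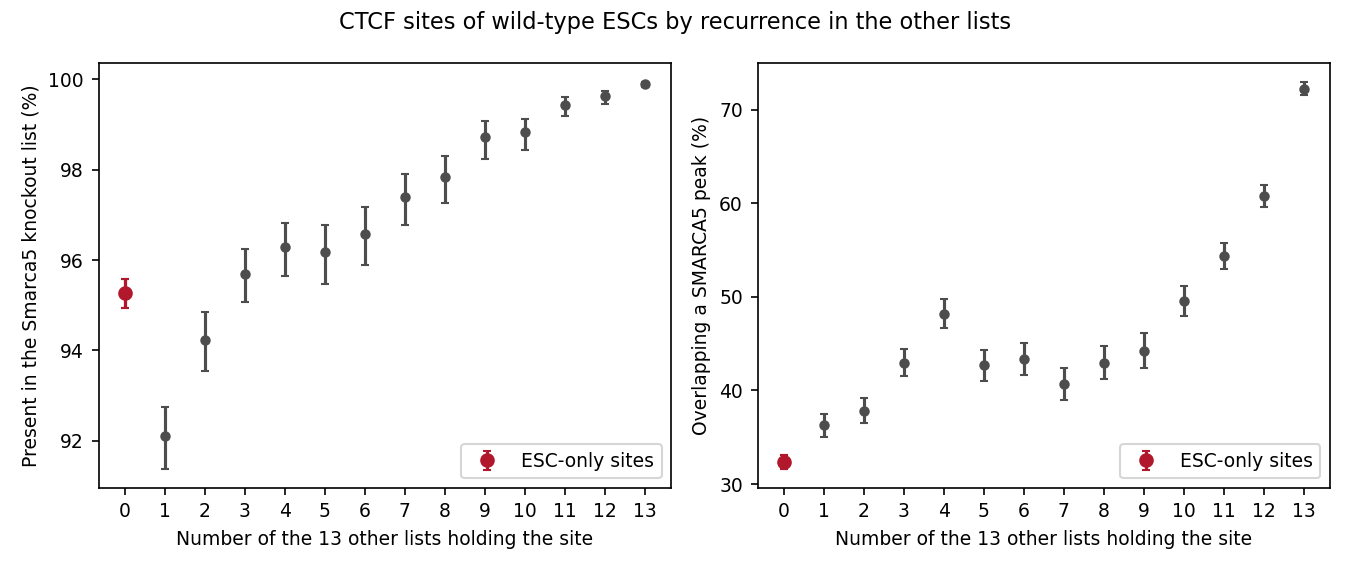
Share of wild-type ESC CTCF sites present in the Smarca5 knockout list (left, %) and overlapping a SMARCA5 peak (right, %) against the number of the 13 other lists that hold the site; points are shares of sites, bars are Wilson 95% intervals, and the axes do not start at 0. ESC-only sites (red, 0 lists) were kept in 95.3% of cases, above the 92.1% of sites in 1 list, and had the lowest SMARCA5 share, 32.4%.

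SMARCA5 was found at fewer ESC-only sites than at other ESC sites. Its peaks overlapped 5308 of the 16400 (32.4%, 31.7 to 33.1), against 52.6% (52.2 to 53.0) of other ESC sites and 48.6% over all ESC sites. The difference was -20.2 points (-21.0 to -19.4), negative on 20 of 20 chromosomes. Here the ESC-only sites did stand at the end of the recurrence scale: sites in 1 list had SMARCA5 in 36.3% of cases, sites in 2 lists in 37.8%, and sites in all 13 lists in 72.2%. Between 4 and 9 lists the share did not climb, moving between 40.7% and 48.2%. Recurrence, list length and the unknown strength of a site cannot be told apart here.

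A SMARCA5 peak, mapped with the tagged protein, did not mark the ESC-only sites that the knockout list lacked. Those with SMARCA5 were kept in 95.3% of cases (94.7 to 95.8) and those without in 95.2% (94.8 to 95.6), a difference of 0.0413 points (-0.672 to 0.719). At other ESC sites, SMARCA5 went with higher retention, 98.5% against 96.6%, a difference of 1.85 points (1.61 to 2.09) found on 20 of 20 chromosomes. Among ESC-only sites the sign of the difference turned with the distance to the nearest start site, a split chosen after the overall values were seen.

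Within 1 kb of a start site, ESC-only sites with SMARCA5 were absent from the knockout list more often than those without. Distances were taken to the start sites of the promoter windows, which leaves out the 530 ESC-only sites of chromosome 18. There were 964 ESC-only sites within 1 kb (6.07%, against 9.54% of other ESC sites and 8.86% of all). Of the 665 with SMARCA5, 71 were absent and 89.3% (86.7 to 91.4) were kept. Of the 299 without SMARCA5, 7 were absent and 97.7% (95.2 to 98.9) were kept. The difference was -8.34 points (-11.2 to -5.12), negative on 16 of the 19 chromosomes with sites of both kinds and positive on 2. Beyond 20 kb the sign was the opposite, with 97.0% kept with SMARCA5 and 95.8% without, a difference of 1.24 points (0.337 to 2.05).

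Other ESC sites as a whole had no negative difference near start sites, but sites in 1 list had. Within 1 kb of a start site, other ESC sites were kept in 97.5% of cases with SMARCA5 and 96.8% without, a difference of 0.711 points (-0.295 to 1.99). Sites of 1 list had 84.3% kept with SMARCA5 and 94.9% without, a difference of -10.6 points (-15.8 to -3.94). For sites of 2 lists the difference was -2.82 points (-6.63 to 2.90), for 3 or 4 lists 3.26 points (0.607 to 7.36), and all 1260 sites of 13 lists were kept. Near start sites the difference was thus negative both for ESC-only sites and for sites in 1 list. Its change with recurrence was not tested.

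Distance to a start site also ordered SMARCA5 itself. Within 300 bp, 77.6% of ESC-only sites held a SMARCA5 peak (73.8 to 81.0), at 300 to 1000 bp 59.2%, at 1 to 5 kb 27.7%, at 5 to 20 kb 34.1%, and beyond 100 kb 20.4%. Other ESC sites had higher shares in each of the 6 distance classes, from 88.4% within 300 bp to 37.8% beyond 100 kb. Genes without a window are missing from these distances, so the far classes can hold sites at their starts. With both ends of the spans of the 4395 protein-coding genes without a window added, the share beyond 100 kb was 15.9% and that within 300 bp 76.8%. This setting also takes in the 530 ESC-only sites of chromosome 18, so it covers more sites. The difference in retention within 1 kb, with minus without SMARCA5, was then -7.34 points (-9.89 to -4.52). By the starts of the windows alone, retention of the ESC-only sites ran from 90.4% within 300 bp to 97.6% beyond 100 kb. The absent members lay within 1 kb of a start site in 10.3% of cases (8.33 to 12.7), the kept ones in 5.86% (5.50 to 6.25).

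**Figure D2:**
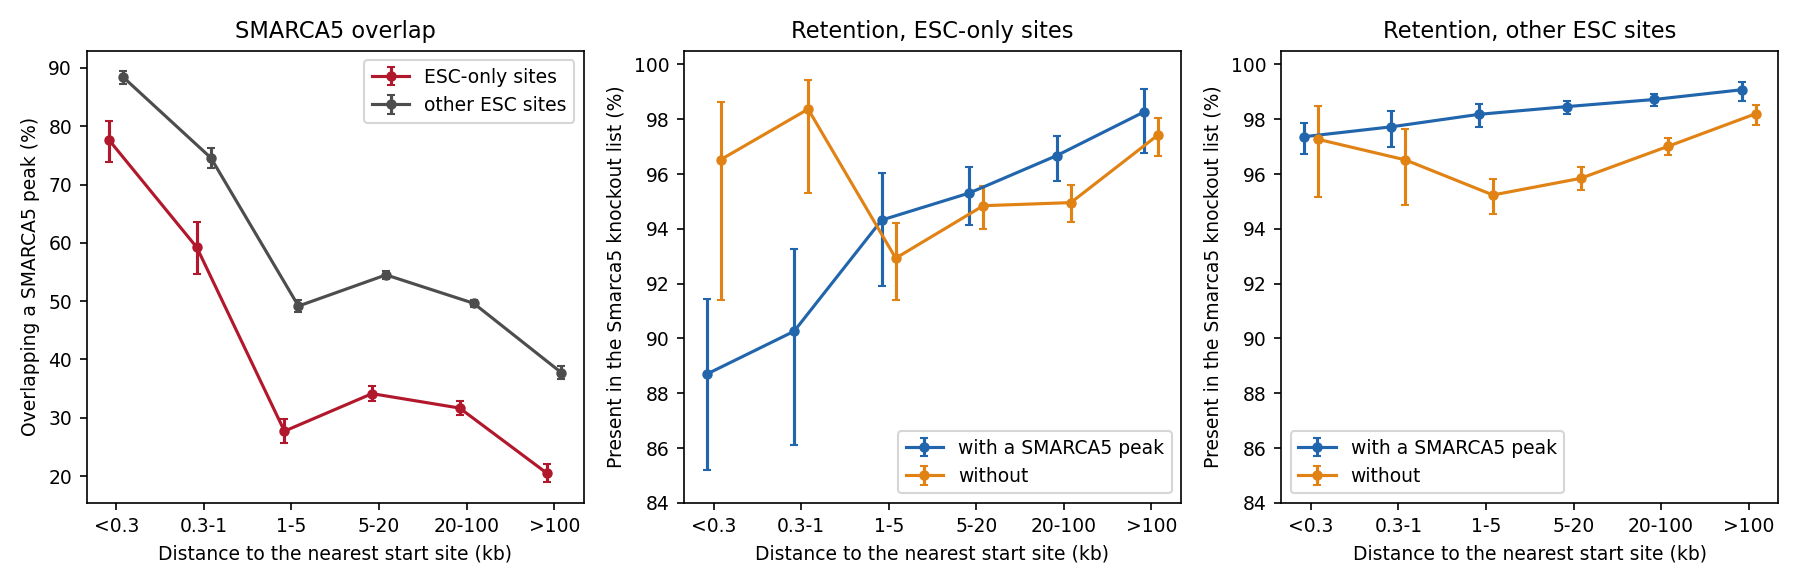
Left, share of sites overlapping a SMARCA5 peak (%) by distance to the nearest RefSeq start site (kb, 6 classes) for ESC-only (red) and other ESC sites (grey); middle and right, share present in the Smarca5 knockout list (%) for sites with (blue) and without (orange) a SMARCA5 peak, with an axis that starts at 84%. Points are shares, bars Wilson 95% intervals; within 0.3 kb, ESC-only sites with SMARCA5 were kept in 88.7% of cases and those without in 96.5%.

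The X chromosome stood apart in SMARCA5. Its share of ESC-only sites, 369 of 2107 (17.5%), was just below the 18.3% to 21.5% of the 19 autosomes. SMARCA5 covered 13.01% of the ESC-only sites of X, against 29.1% (chromosome 14) to 36.3% (chromosome 10) on the autosomes. The other ESC sites of X had SMARCA5 in 17.1% of cases, against 46.4% to 56.1% on autosomes. Of all SMARCA5 peaks 0.816% lay on X, compared with 2.53% of wild-type CTCF sites and 2.38% of knockout CTCF peaks. Why the SMARCA5 list holds so few peaks of X was not tested. On Y, 21 of 30 ESC sites were ESC-only and 11 of the 21 were in the knockout list.

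**Figure D3:**
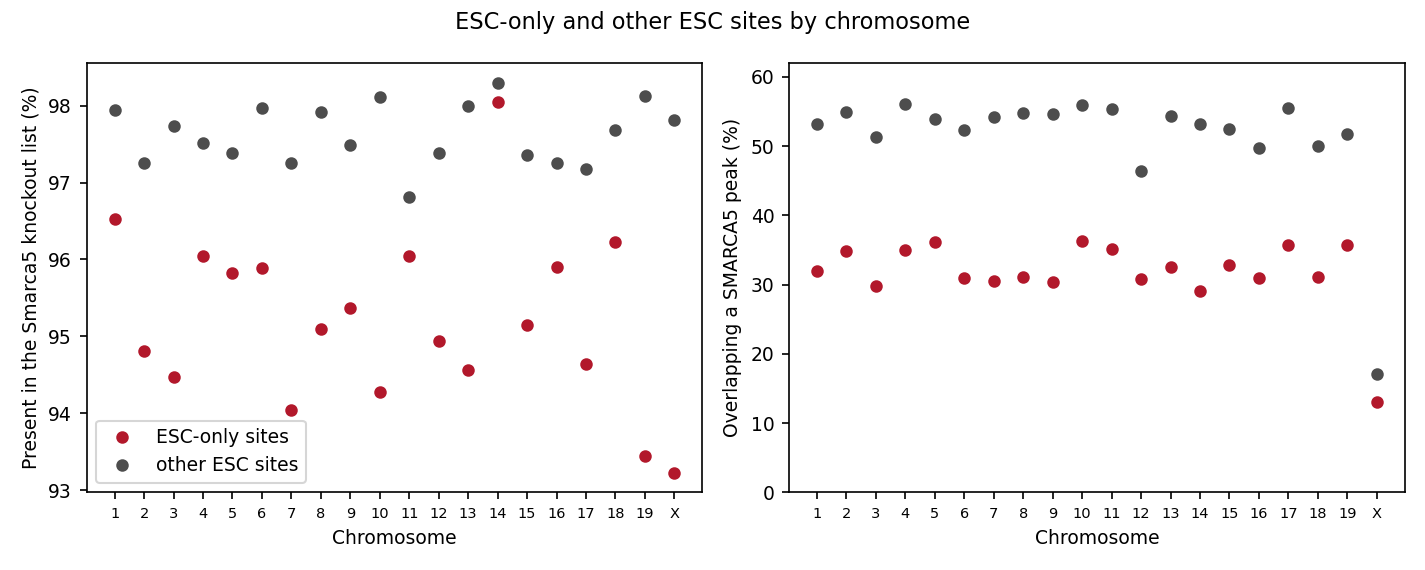
Share of ESC-only (red) and other ESC sites (grey) present in the Smarca5 knockout list (left, %, axis starting at 93%) and overlapping a SMARCA5 peak (right, %) on chromosomes 1 to 19 and X; each point is 1 chromosome of 1 list. Red points lie below grey ones on all 20 chromosomes, and X has the lowest SMARCA5 shares, 13.01% and 17.1%.

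In position along genes, ESC-only sites resembled other ESC sites inside genes and were scarcer just outside them. Spans of protein-coding genes held 9175 of them (55.9%, 55.2 to 56.7), against 55.3% of other ESC sites and 55.4% of all, a difference of 0.686 points (-0.163 to 1.53). With 10 kb added to each side of the span, the shares were 67.7% and 71.5%, a difference of -3.81 points (-4.61 to -3.02). More than 50 kb from any protein-coding gene lay 18.2% of ESC-only and 13.6% of other ESC sites. Sites inside genes held SMARCA5 more often than those outside, 36.9% against 26.6%, and more than 50 kb from genes 19.2% did. Retention hardly differed, with 95.4% inside and 95.1% outside. The median distance to the nearest start site was 22.4 kb for ESC-only and 18.6 kb for other ESC sites. Spans come from RefSeq, and exons and introns were not used here.

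Genes of the pluripotency network had many ESC-only sites. Of the 148 ESC sites inside or within 10 kb of the 30 genes of this list, 46 were ESC-only (31.1%, 24.2 to 38.9), against 18.9% for all protein-coding genes. Of the 46, 45 were in the knockout list and 20 held SMARCA5, and 24 of the 30 genes had at least 1. Esrrb, an orphan nuclear receptor of naive ESCs, had 9 of its 15 sites in this class. Without Esrrb the list had 37 of 133 (27.8%, 20.9 to 36.0). ESC-only status was what the rule used, so these shares are descriptions, and sites near a gene of the list are not independent of each other.

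The 9 ESC-only sites of Esrrb on chromosome 12 were spread from 24.9 kb to 165 kb after its 5′ end. The last of them lay past the end of its 161 kb span. All 9 were in the knockout list and 5 held SMARCA5. Between 94.7 and 117 kb stood 3 in a row, each with SMARCA5, the middle one at 86463130 to 86463529. Of the 6 other sites, 2 were held by all 13 lists (41.8 and 72.3 kb from the 5′ end), and the remaining 4 by only 1 or 2 lists. Of these, the site at 83.6 kb was absent from the knockout list.

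Other factors of the network had fewer. Nr5a2, a nuclear receptor that can replace Oct4 in reprogramming, had 4 of 8 sites in the class. These lay 7.32, 11.3, 36.0 and 52.5 kb after its 5′ end, all kept, 3 with SMARCA5. Tfcp2l1, a transcription factor of naive ESCs, had 3 of 5, all kept and 1 with SMARCA5. Its site at the start itself was held by 7 lists. Zfp42 (Rex1), a marker of ESCs, had 3 of 4, all kept and 1 with SMARCA5. Jarid2, a subunit of Polycomb complex PRC2, had 5 of 15, of which 4 were kept. Dnmt3b, Dppa2 and Dppa5a had 2 each. Pou5f1 (Oct4), Nanog, Klf2, Klf4, Klf5, Tbx3, Sall4, Lin28a and Prdm14 were among the 16 genes with 1. Sox2, Dppa3, Nr0b1, Utf1 and Dnmt3l had ESC sites but no ESC-only site, and Otx2 had no ESC site.

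**Figure D4:**
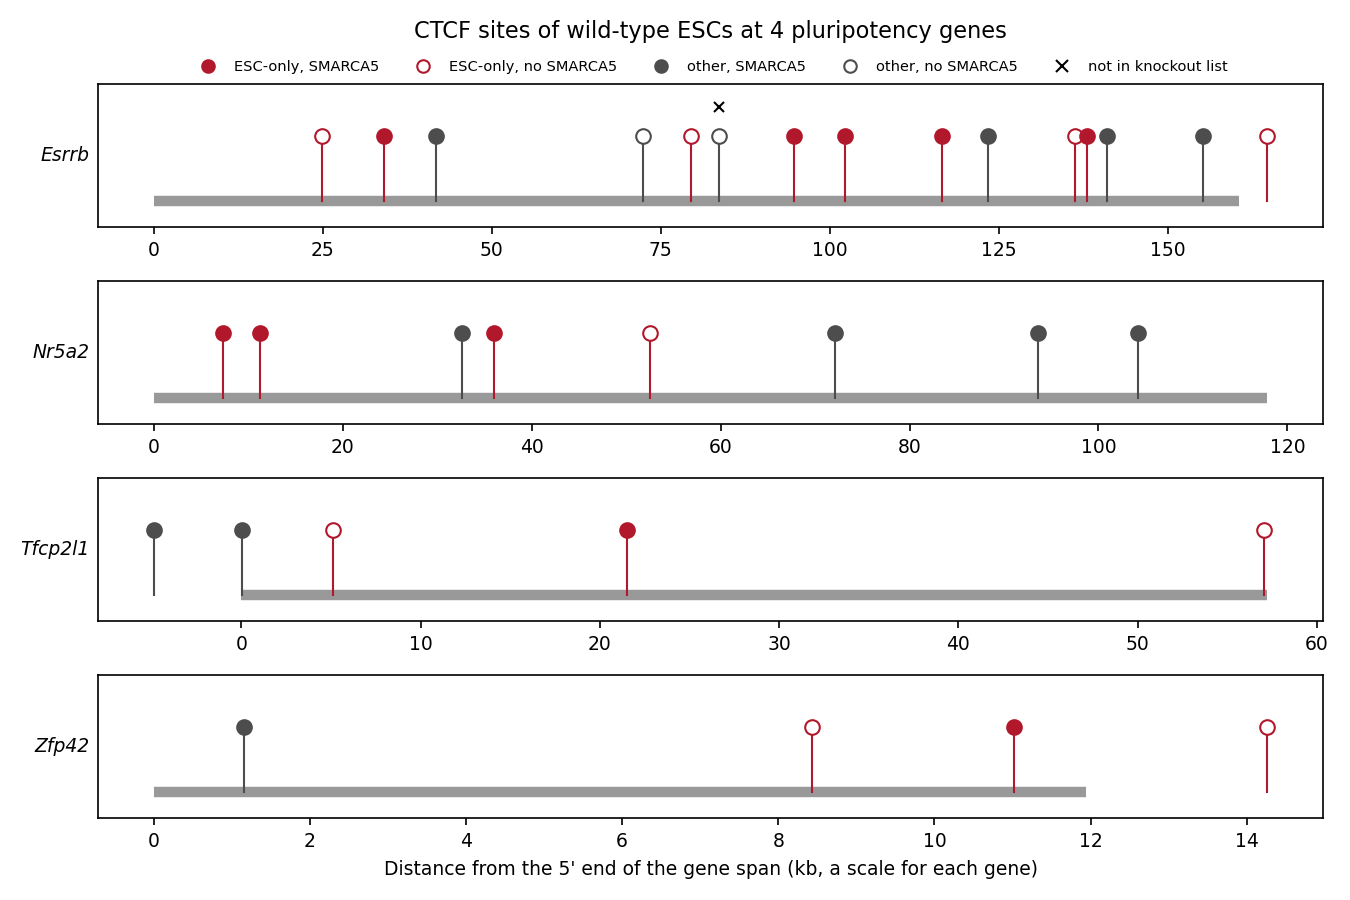
Wild-type ESC CTCF sites at Esrrb, Nr5a2, Tfcp2l1 and Zfp42 by distance from the 5′ end of the gene span (kb, a scale of its own for each gene); the grey bar is the span, red circles are ESC-only and grey circles other ESC sites, filled with a SMARCA5 peak and open without, and a cross marks absence from the Smarca5 knockout list. Esrrb has 9 red circles of 15, none with a cross, and the single cross stands over another site of Esrrb.

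The other gene lists had shares near or below that of all genes. Fibroblast and mesenchymal genes had 17 ESC-only sites of 117 (14.5%, 9.27 to 22.04), genes of the trophoblast and primitive endoderm list 4 of 49 (8.16%, 3.22 to 19.2), and imprinted genes 14 of 100 (14%, 8.53 to 22.1). Epithelial genes had 15 of 96 (15.6%), Hox genes 8 of 43 (18.6%), germline and 2-cell genes 7 of 36 (19.4%) and neural genes 8 of 41 (19.5%). Genes for CTCF, cohesin and ISWI remodellers had 20 of 104 (19.2%). The interval of each of these 8 lists included the 18.9% of all protein-coding genes.

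Within these lists, single genes held several such sites. Zeb1, a repressor of epithelial genes, had 3 sites in ESCs, all 3 ESC-only, kept and without SMARCA5, and its relative Zeb2 had 2 of 3, both kept and with SMARCA5. Grhl2, a transcription factor of epithelia, had 5 of 12, all kept, 3 with SMARCA5. Ocln, a tight-junction gene, had 1, with SMARCA5, which was absent from the knockout list, as was the 1 of Neurod1, a neuronal transcription factor. Airn, the noncoding transcript that silences Igf2r, had 4 of 9 and Igf2r 2 of 4, all kept. These genes overlap, and the 2 of Igf2r are among the 4 of Airn. Tdrd1 had 3 of 4, and Piwil2, another piRNA gene, 2 of 3. Pds5a, a cohesin regulator, had 4 of 8, and Bptf, a subunit of the ISWI complex NURF, 3 of 14, all kept. In the Hox clusters Hoxc11 and Hoxc13 had 2 of 3 each, and the neural factor Sox1 had 2 of 3, both with SMARCA5.

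Long neuronal genes had ESC-only sites at about the share of all genes, and few of these held SMARCA5. The 24 matched genes of the list of long neuronal adhesion and synapse genes held 114 of 524 sites (21.8%, 18.4 to 25.5), an interval that includes the share of all genes. All 114 were in the knockout list, and 16 held SMARCA5. Csmd1, a membrane protein with complement-control domains, had more than any other protein-coding gene, 13 of 37 in a span of 1643 kb, none with SMARCA5. Cdh13 (T-cadherin) had 11 of 56, 2 with SMARCA5, Macrod2 had 9 of 26, none with it, and Cntnap2 had 8 of 28, 4 with it. Gene length moved with these values. ESC-only sites made up 16.1% of the ESC sites of genes under 20 kb and 18.3% for genes of 20 to 100 kb. The share was 20.9% for genes of 100 to 300 kb and 20.2% for longer genes. Over all protein-coding genes of 300 kb or more, 97.3% of ESC-only sites were kept and 27.1% held SMARCA5, against 93.4% and 39.5% for genes under 20 kb.

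The 20 protein-coding genes with the most ESC-only sites had between 9 and 13 each. Their spans had a median of 646 kb, against 17.2 kb over all 21887 protein-coding genes, and 8366 genes (38.2%) had at least 1 such site. After Csmd1 came Tenm4 (a teneurin, 11 of 26), Ksr2 (a scaffold of the Ras pathway, 11 of 31), Camta1 (11 of 54) and Cdh13, and then Fam189a1 (10 of 19). Gm37013, a gene model across the protocadherin cluster, had 10 of 78. With 9 each followed Esrrb, Fam155a, the potassium channel gene Kcnj6, the delta-catenin gene Ctnnd2, Fryl, the exocyst gene Exoc4, the chromatin reader gene Dpf3, Ptprn2, Schip1, Ctif, the glutamate receptor gene Grik4, Iqschfp and Macrod2. Schip1 and Iqschfp overlap and share sites. Of the 185 distinct ESC-only sites at these genes, 184 were in the knockout list, and 63 held SMARCA5 (34.1%). Of the other ESC-only sites, 95.2% were in the knockout list and 32.3% held SMARCA5. At Fam155a, as at Csmd1 and Macrod2, none of 9 did, while at Schip1 7 of 9 did. Esrrb had the shortest span of the 20.

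Per 100 kb, short genes led. Among genes with at least 5 ESC-only sites, Ddx19b, an RNA helicase gene of mRNA export, had 12.4 per 100 kb, from 6 of 7 sites around a span of 28.6 kb. Rab11fip1 followed with 10.7, Acsf2 with 9.23, Tle3 with 9.07 and Tcof1 with 9.05. Kif5a, Zfpm1, 5031439G07Rik, Ptpn12 and Nrap had between 6.66 and 8.24. Of the ESC-only sites of these 10 genes, 1 was absent from the knockout list, at Acsf2. SMARCA5 was at 4 of 5 sites of Tcof1 and at 1 of 6 of Ddx19b. Esrrb, for comparison, had 4.99 per 100 kb.

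**Figure D5:**
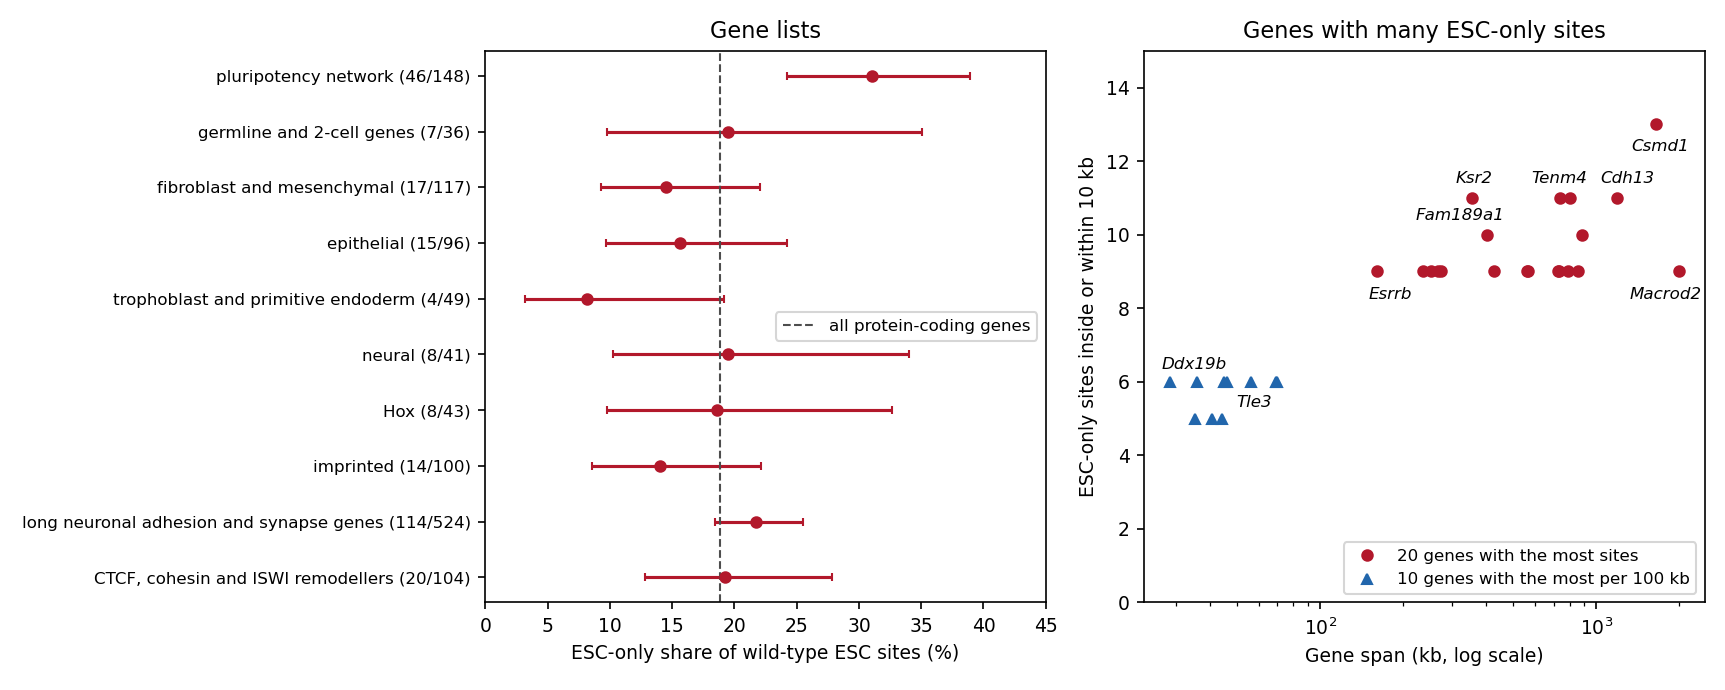
Left, ESC-only share of the wild-type ESC sites inside or within 10 kb of the genes of each list (%, bars are Wilson 95% intervals, counts in brackets), with the share over all protein-coding genes as a dashed line at 18.9%. Right, number of ESC-only sites against gene span (kb, log axis) for the 20 genes with the most sites (circles) and the 10 with the most per 100 kb (triangles); Esrrb has the shortest span among the circles, 161 kb.

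Some ESC-only sites followed each other along the chromosomes. In the order of ESC sites, 9590 ESC-only sites (58.5%) had no ESC-only neighbour, and 990 (6.04%) were in runs of 4 or more. ESC-only sites made up 19.7% of all ESC sites. Whether these values differ from those of a random order was not tested. The longest run, 10 sites over 61618 kb, was on Y, where few sites were listed at all, and 1 of its 10 sites was in the knockout list. The longest on an autosome had 9 sites over 295 kb and began inside Tle3, a Groucho-type corepressor gene (chromosome 9, 61379285 to 61674329). All 9 were kept and 2 held SMARCA5. A run of 8 lay within 45.5 kb at Fntb and Max (chromosome 12, 76901420 to 76946885). Max is the partner of Myc, all 8 sites were kept, and 3 held SMARCA5. A second run on Y had 8 sites, 7 of them kept. Runs of 7 lay at the zinc-finger genes Zfp970, Gm14322 and Gm14325 on chromosome 2 and at Igf1r, the receptor of insulin-like growth factor, with Pgpep1l on chromosome 7, all kept.

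ESC-only sites absent from the knockout list were scattered. Of protein-coding genes, 720 had at least 1 such site within 10 kb, and 23 had 2, none more. In alphabetical order the first 10 of the 23 were Alg9, Ank3, Aopep, Camkmt, Card10, D230025D16Rik, Depdc7, Dtd1, Gpcpd1 and Hadh. Hadh, a mitochondrial enzyme gene of fatty acid oxidation, had both of its ESC-only sites absent, neither with SMARCA5. Ank3, the gene of ankyrin-G, had 2 of 4 absent, and 10 of its 28 ESC sites were held by all 13 lists. SMARCA5 had been at 32.2% (29.0 to 35.5) of the 777 absent sites, close to the 32.4% of all ESC-only sites.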

How the data were processed

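ChIP-seq peak lists of 16 groups were analysed, 1 per group. The genome build was mm10 (GRCm38), and MACS2, HOMER, Bowtie2, Picard, SAMtools, bedtools, deepTools, Trim Galore and FastQC had been used, per the submitters' processing notes. What each tool did, its version and how samples were pooled is not given in the sources used here. The score that the authors deposited for each peak is 0 in every line, so only positions were used. Samples were grouped by title. The labels of the day 3 Thy1+ samples conflict on the shRNA, which does not affect membership because both Thy1+ lists belong to the 13.

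Overlap meant 1 bp or more, and bedtools 2.31.1 gave the same 16400 members, 15623 kept and 5308 with SMARCA5. Overlap and interval functions were tested on simulated data. Shares have Wilson and differences Newcombe 95% intervals. No test was run, since each group has 1 list. Genes and promoter windows came from RefSeq tables of GRCm38.p6. Windows covered 17492 of 21887 protein-coding genes, and none on chromosome 18 was used here. Distances to start sites thus use the 15870 members on the other chromosomes, except where span ends were added. Start sites of other genes are missed.

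The members, gene lists and rules were chosen with earlier results of these data known. The text names the 20 protein-coding genes with the most ESC-only sites (inside the span or within 10 kb), the 10 with the most per 100 kb among those with 5 or more, and up to 4 per gene list. It also names genes at the 5 longest runs, up to 10 genes with 2 or more members absent from the knockout list, and listed genes with a member in a promoter window. The other pluripotency genes and the genes with a close motif match were chosen after their values were seen. Of 25 long neuronal genes, 24 were matched, because 2 names belong to the same gene. The gene lists were compiled for this work and are not the study's. Figures were drawn with matplotlib 3.10.9, and values were computed with SciPy 1.17.1 and NumPy 2.4.6 under Python 3.11.15.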

Additional observations from a re-analysis of the deposited data

How the results depend on the processing

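No paired analysis was possible because each group has 1 peak list and no result comes from a test. Of 61 alternatives, 38 left the value within its 95% interval or, for counts, within 1.5 times, and 23 moved it. Why they moved it was not tested. No difference changed its sign, and shares and counts could not change theirs. A reciprocal overlap of 50% with the knockout or SMARCA5 list left each value unchanged. It could not do otherwise at ESC-only sites, where overlapping peaks had identical coordinates. Only the positions of peaks were available, so weak and absent binding cannot be told apart.

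Without the 8 lists of sorted cells the rule took 33669 sites, of which 94.1% were in the knockout list, 33.2% held SMARCA5 and 55.1% lay inside genes, and the differences from other ESC sites were -5.14 points for the knockout and -25.8 points for SMARCA5. Without the 3 day 10 lists these values were 95.6%, 34.6%, 57.5%, -1.96 and -18.2 points. With the 6 control lists only, the SMARCA5 share was 33.6% and the knockout difference -2.70 points. With a reciprocal overlap of 50% with the 13 lists, SMARCA5 was at 33.2%, a difference of -19.4 points. When a peak within 1 kb counted as the same site, SMARCA5 was at 31.6% and the knockout difference was -1.96 points. For sites with no ESC peak within 1 kb, SMARCA5 was at 31.6%. With 2.5, 10 or 50 kb added to gene spans, 60.4%, 67.7% or 81.8% of sites were inside. Of the 20 genes with the most sites, 8 remained with spans plus 50 kb and 15 with spans alone. Leaving out X and Y, or sites within 1 kb of a start site, alternatives chosen after seeing the data, left the differences within their intervals. With span ends added as start sites, also chosen after seeing the data, the SMARCA5 share of ESC-only sites beyond 100 kb was 15.9%, with chromosome 18 included.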

Other observations

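Peaks that appeared only in the Smarca5 knockout list were mostly absent from the reprogramming cells as well. Of these 8791 peaks, 7456 (84.8%, 84.05 to 85.5) overlapped no peak of the 13 lists, against 19.3% of the knockout peaks that wild-type ESCs also had. SMARCA5, mapped in cells that have Smarca5, was at 32.9% of the 7456, close to the 32.4% at the ESC-only sites of wild-type cells, and at 48.8% of the knockout-only peaks that the 13 lists did hold.

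Noncoding genes were looked at after the values were seen. The miR-302 and miR-367 cluster on chromosome 3, whose microRNAs are abundant in pluripotent cells, had 3 ESC sites within 10 kb, of which 2 were ESC-only, and 1 of those was in the knockout list. The miR-290 to miR-295 cluster on chromosome 7, the main microRNA cluster of mouse ESCs, had 1 ESC site and 0 ESC-only sites. Among long noncoding RNA genes, Gm31432 on chromosome 9 had the most ESC-only sites inside its span, 7 of 13, with 6 in the knockout list and 1 with SMARCA5.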
